A study of Homo sapiens with 15 samples.

Results

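Gene expression of IGROV-CP20 cells exposed to Amphotericin B and then cisplatin was compared with that of untreated IGROV-CP20 cells. The comparison takes 6 of the 15 libraries in the series, 3 per group, chosen by their labels, and covers every gene with enough counts for a test, 11113 of the 47634 gene identifiers in each count table. IGROV-CP20 is a single ovarian cancer cell line with acquired resistance to cisplatin, and no other line was sequenced. Libraries were made from 100 ng of RNA by QuantSeq, a method that reads each mRNA next to its poly(A) tail, with reads of 75 bp. The question behind the series is which transcripts respond when approved drugs are given to these cells before cisplatin.

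Treated cultures were kept with Amphotericin B (10 µM, 24 h), after which cisplatin was given (50 µM, 24 h), hereafter called the combination. The control cells received neither agent. Cisplatin alone (50 µM for 24 h) and the same cisplatin exposure after 24 h with 10 µM Tranilast or Telmisartan make up the other conditions, and each has 3 libraries described as biological replicates. A group given Amphotericin B without cisplatin was not analysed here. In the comparison with untreated cells the contributions of both agents therefore cannot be told apart. Values for cisplatin alone are given beside those of the combination for some genes and lists only. In RNA from whole cultures, fewer cells of a kind and less RNA per cell cannot be told apart either.

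Amphotericin B is a polyene antifungal that binds membrane sterols and can make membranes permeable to ions. Cisplatin enters cells in part through copper transporters and forms platinum adducts on DNA, which block replication and transcription and are removed by nucleotide excision repair. Cells under such stress can change several programmes that are read as mRNA: immediate early transcription factors, heat shock chaperones, the unfolded protein response of the endoplasmic reticulum (ER), and the integrated stress response, in which the transcription factor ATF4 drives genes of amino acid synthesis and transport.

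The libraries of the combination were the shallowest, with 1510620 to 1872639 counts against 2691832 to 3392054 in untreated cells, and 8392 to 8606 genes had at least 10 counts against 10676 to 11189. A limit of 3 counts stands for 0.000160% to 0.000199% of a combination library and covers counting error only. Ribosomal RNA of the mitochondrial genome took 12.3% to 14.8% of the counts with the combination, 1.79% to 2.20% in untreated cells and 13.7%, 5.61% and 3.41% in the 3 cisplatin libraries. Replicates differed by more than counting error in every pair, with a mean chi-square per gene of 2.36 to 3.59 among untreated libraries, 4.30 to 5.74 among combination libraries and 9.02 to 49.5 among cisplatin libraries. Cisplatin replicate 1 stood apart from cisplatin replicates 2 and 3, and counts of list members called against cisplatin are given with and without it.

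The label of an ovarian carcinoma line was checked against 12 epithelial and ovarian markers, of which 6 had enough counts for the test. KRT18, an epithelial keratin, was at 84.0 to 92.4 CPM (counts relative to the library total, scaled as given below) in untreated cells and EPCAM, an epithelial adhesion molecule, at 39.9 to 43.4 CPM, while PAX8, WT1, MUC16, SOX17 and KRT7 had 1 to 4 counts over all 15 libraries. These defining markers of ovarian carcinoma were thus near absent in untreated cells too. Against untreated cells, 2 of the 6 were higher (CDH1 and KRT18) and 1 was lower (EPCAM). No endothelial marker of 6 was tested, 3 of 8 fibroblast markers were tested and none passed, and of 6 leukocyte markers only PTPRC was tested. PTPRC, which encodes the leukocyte antigen CD45, was at 70.1, 64.5 and 75.4 CPM in untreated cells and at 9.96, 12.8 and 12.7 CPM with the combination (log2 fold change -2.56 ± 0.46, adjusted p = 0.000422), while CD3E had 0 counts and CD68, CD14 and LYZ had 17 to 30 counts over all libraries. Summed over each list, epithelial markers were at 165 to 166 CPM in untreated cells and 199 to 270 CPM with the combination, and fibroblast markers at 51.2 to 77.1 and 58.1 to 91.7 CPM.

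Against untreated cells, 4548 genes passed the test (40.9% of the genes tested), of which 1961 were higher with the combination (17.6%) and 2587 lower (23.3%). Here and below, log2 fold changes are given ± their standard error (SE) and adjusted p comes from the quasi-likelihood test of edgeR, adjusted by Benjamini-Hochberg over all 11113 genes and called at 0.05. Values per library are CPM scaled by the TMM method, and n = 3 libraries in every group. A change of at least 2-fold was reached by 1259 of the higher genes (11.3% of the genes tested) and 1710 of the lower genes (15.4%). The libraries of both groups did not overlap in 58.7% of the genes: in 23.4% of the genes all 3 combination libraries lay above all untreated libraries and in 35.3% below them. The median gene was at -0.19 with TMM, at -0.07 with the size factors of DESeq2 and at -0.75 when only library size was scaled, and the last of these gave 887 higher and 4804 lower genes. Gene groups below are read against that median and against the 17.6% higher and 23.3% lower over all genes tested. For cisplatin alone against untreated cells, the same fit put the median gene at -0.015. List counts for cisplatin alone are given without a share over all genes.

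Among protein-coding genes of at least moderate level, the 12 largest increases included immediate early genes, a heat shock chaperone and transcripts of the mitochondrial genome. FOS, a subunit of the AP-1 transcription factor (ENSG00000170345, GRCh38 chromosome 14, 75278774 to 75282230, plus strand), was at 5.10, 2.88 and 2.04 CPM in untreated cells and at 82.5, 50.5 and 93.2 CPM with the combination (4.51 ± 0.66, adjusted p = 9.97e-05). HSPA8, the constitutive cytosolic HSP70 chaperone, went from 26.8, 23.3 and 24.2 CPM to 222, 140 and 231 CPM (2.996 ± 0.42, adjusted p = 7.72e-05), although near-identical copies of this gene make its counts uncertain. CSKMT, a methyltransferase of citrate synthase that shares its position with LBHD1 on the opposite strand, had the smallest adjusted p of this group (9.48e-07) at 2.79 ± 0.23. The other increases were MT-CO1 (3.23), MTRNR2L12 (3.01), GADD45B (2.97), IER5L (2.90), MT-ND1 (2.87), RSRP1 (2.80), WDR74 (2.75), TUBB2A (2.71) and LRWD1 (2.58), of which RSRP1 and LRWD1 overlap genes on the opposite strand, and MTRNR2L12 is a nuclear copy of mitochondrial ribosomal RNA.

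The 12 largest decreases included genes of the ER and of the cell surface. CLGN, an ER chaperone of the calnexin family (ENSG00000153132, chromosome 4, 140388455 to 140427968, minus strand), was at 135, 157 and 149 CPM in untreated cells and at 7.11, 18.4 and 11.9 CPM with the combination (-3.57 ± 0.35, adjusted p = 5.83e-06). SEL1L, the membrane adaptor of the ubiquitin ligase that clears misfolded ER proteins, went from 92.1, 92.1 and 96.0 CPM to 7.82, 14.4 and 4.47 CPM (-3.40 ± 0.40, adjusted p = 2.47e-05). ITGAV, the integrin alpha V subunit, went from 695, 783 and 787 CPM to 90.3, 96.2 and 119 CPM (-2.89 ± 0.42, adjusted p = 9.51e-05). The remaining decreases were FAM129A (-3.37), AKNA (-3.33), HSPA5 (-3.19), the lysosomal sorting receptor IGF2R (-3.05), the collagen receptor DDR2 (-2.96), the guidance factor SEMA3A (-2.78), CRISPLD1 (-2.75), the adhesion molecule ALCAM (-2.71) and HSPA13 (-2.70).

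**Figure D1:**
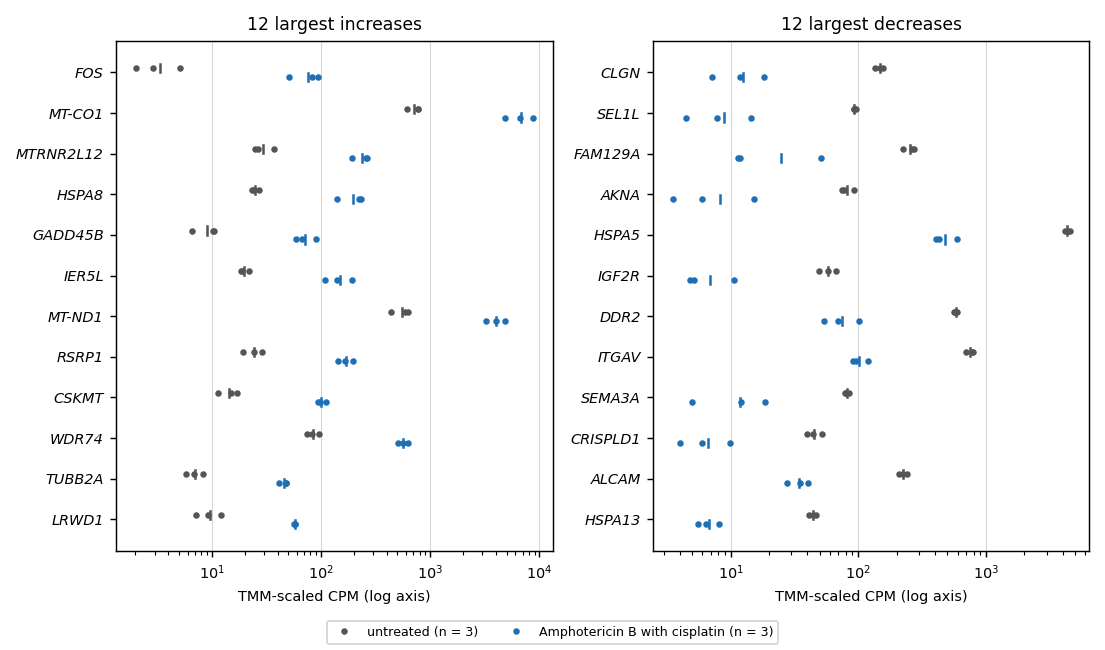
Level of the 12 protein-coding genes with the largest increase (left) and decrease (right) against untreated cells, as TMM-scaled CPM on a log axis. Points are libraries (3 untreated, 3 with Amphotericin B and cisplatin) and vertical bars are group means. The rule for these genes took only those whose groups do not overlap, and FOS on the left rises from at most 5.10 to at least 50.5 CPM.

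Genes of ER protein folding fell more often than they rose: 12 of 27 were lower and 3 higher, with a median of -0.73 against -0.19 over all genes. With library size alone 20 were lower and 1 higher. HSPA5 encodes BiP, the main ER chaperone and the sensor of unfolded proteins (ENSG00000044574, chromosome 9, 125234853 to 125241330, minus strand). It was at 4524, 4140 and 4370 CPM in untreated cells, at 431, 592 and 403 CPM with the combination (-3.19 ± 0.27, adjusted p = 1.54e-06) and at 818, 427 and 443 CPM with cisplatin alone. The combination and cisplatin libraries overlapped, and both lay far below the untreated libraries. Among the stress sensors, ATF6 (-2.41 ± 0.34, adjusted p = 8.20e-05) and ERN1, which encodes IRE1 (-2.43 ± 0.54, adjusted p = 0.00190), fell. Lower values were also found for the chaperones HYOU1 (-2.0004), HSP90B1 (-1.60) and CANX (-1.59), for the disulfide isomerases PDIA6 (-1.29) and PDIA4 (-0.98), and for the co-chaperones DNAJC3 (-1.69) and DNAJB11 (-0.63). CALR (-0.09, adjusted p = 0.756) and P4HB (-0.03, adjusted p = 0.924) did not pass. The higher genes were MANF (0.82), SDF2L1 (0.90) and DERL3 (2.56), of which DERL3 stayed below 10 CPM in every library of these groups and MANF lost its call without combination replicate 3 (adjusted p = 0.0777). HYOU1, HSP90B1 and DERL3 overlap genes on the opposite strand, and whether the counting used the strand is not given in the sources used here. Of the 27 genes, 15 were lower and 3 higher with cisplatin alone against untreated cells (median -0.87).

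Promoters of this group often carry the ER stress response element, a CCAAT box and a CCACG box separated by 9 bases, which ATF6 and NF-Y recognise. The exact element was searched on both strands in the 250 bases before each start in RefSeq promoters of GRCh38.p14, and was found in 6 of 24 promoters of tested members, against 13 of 8333 promoters of all genes tested (0.156%) and 22 of 27305 promoters in all (0.0806%). Of these, 4 belong to genes that fell (HSPA5, HSP90B1, CANX, XBP1) and the others to CALR and CRELD2, which did not pass the test. The elements are shown because the list's members differ in response while sharing both boxes, and capitals mark the element from CCAAT to CCACG, with 20 bases on each side. Not shown are the element of CRELD2 and a further one of HSP90B1.
HSPA5 (chr9:125241371-125241429, minus strand, element 66 bases before the start): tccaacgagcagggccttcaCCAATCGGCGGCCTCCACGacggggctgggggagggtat
HSP90B1 (chr12:103930196-103930254, plus strand, 194 bases before the start): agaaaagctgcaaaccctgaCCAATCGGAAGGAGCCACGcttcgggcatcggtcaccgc
CANX (chr5:179698758-179698816, plus strand, 151 bases before the start): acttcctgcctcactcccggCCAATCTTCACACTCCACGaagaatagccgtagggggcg
XBP1 (chr22:28800583-28800641, minus strand, 52 bases before the start): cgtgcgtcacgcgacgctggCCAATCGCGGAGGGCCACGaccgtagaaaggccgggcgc
CALR (chr19:12938364-12938422, plus strand, 225 bases before the start, element on the other strand): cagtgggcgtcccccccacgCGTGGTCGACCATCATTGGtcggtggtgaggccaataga

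The ATF4 group moved almost as a whole in the same direction: 31 of 35 tested members were lower and 1 was higher, with a median of -1.50 (34 and 0 with library size alone). ASNS, asparagine synthetase (ENSG00000070669, chromosome 7, 97852118 to 97872542, minus strand), was at 1025, 957 and 1066 CPM in untreated cells and at 294, 385 and 192 CPM with the combination (-1.81 ± 0.24, adjusted p = 6.42e-05). PSAT1, an enzyme of serine synthesis, went from 333, 273 and 301 CPM to 69.7, 95.4 and 73.0 CPM (-1.93 ± 0.21, adjusted p = 1.40e-05). CHAC1, which degrades glutathione, went from 137, 137 and 129 CPM to 26.3, 39.3 and 12.7 CPM (-2.37 ± 0.50, adjusted p = 0.00133). The groups did not overlap in any of these called genes, nor did they in 58.7% of all genes tested. With cisplatin alone ASNS was at 409, 375 and 535 CPM, also below every untreated library. Of the 35 members, 29 were lower and 0 higher with cisplatin alone against untreated cells (median -1.14).

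The remaining roles within the group moved together. Transporters of amino acids were lower, with SLC7A11 at -2.10, SLC7A1 at -2.10, SLC7A5 at -1.64 and SLC1A5 at -1.36, and so were the folate enzymes ALDH1L2 (-2.36), MTHFD2 (-1.16) and SHMT2 (-0.50). The gluconeogenic enzyme PCK2 was at -1.54 (adjusted p = 7.15e-05), the pseudokinase TRIB3 at -1.82 and the transcription factors CEBPG, ATF5 and CEBPB at -1.50, -1.26 and -1.13. Among upstream kinases, EIF2AK3 (PERK) was at -2.04 and EIF2AK4 (GCN2) at -0.61. ATF4 itself, whose protein level is set mainly by translation, was at 1468, 1592 and 1640 CPM in untreated cells and at 1608, 1505 and 1129 CPM with the combination (-0.15 ± 0.25, adjusted p = 0.660). The single higher member was PPP1R15A, the phosphatase subunit that ends the response, from 55.5, 46.0 and 51.2 CPM to 91.0, 81.0 and 85.0 CPM (0.75 ± 0.17, adjusted p = 0.00206), a call lost with library size alone (0.19). DDIT3, which encodes the factor CHOP, was at -0.82 (adjusted p = 0.0201) and lost the call without combination replicate 1 or 3 or untreated replicate 1 (adjusted p = 0.0526 to 0.0693). CEBPB lost it without combination replicate 1 (adjusted p = 0.0518), SHMT2 without combination replicate 3 or untreated replicate 1 or 3 (adjusted p = 0.0628 to 0.167) and EIF2AK4 without combination replicate 2 or 3 or any untreated replicate (adjusted p = 0.0648 to 0.170). With all libraries kept, SHMT2 also lost it with edgeR's RLE (adjusted p = 0.0835) and upper quartile scaling (0.0940). EIF2AK4 lost it with both scalings (0.0739 and 0.0785) and with DESeq2 (0.0653). SHMT2 lost it in the fits of only the libraries compared too (0.0539, and 0.0776 with the replicate block).

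The site that ATF4 recognises with C/EBP partners, written TGATGNAA and searched on both strands, was in the 250 bases before the start of 2 of 27 promoters of tested ATF4 members (7.41%), against 100 of 8333 promoters of all genes tested (1.20%) and 870 of 27305 promoters in all (3.19%). Both windows are shown, with the site in capitals, since both genes fell.
ASNS (chr7:97872449-97872496, minus strand, 68 bases before the start): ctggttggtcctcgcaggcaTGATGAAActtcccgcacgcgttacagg
CHAC1 (chr15:40953242-40953289, plus strand, 209 bases before the start, site on the other strand): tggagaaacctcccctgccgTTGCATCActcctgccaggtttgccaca

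**Figure D2:**
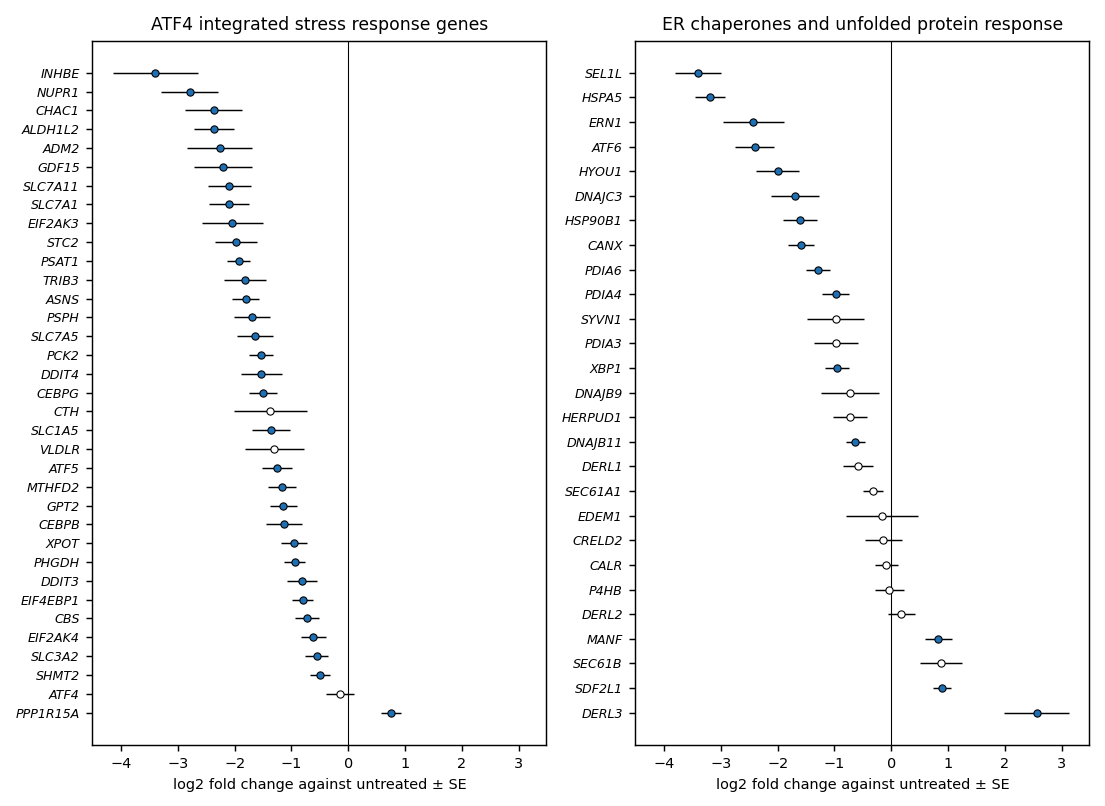
Log2 fold change of the combination against untreated cells for each tested gene of the ATF4 list (left, 35 genes) and the ER list (right, 27 genes), with bars of ± 1 SE from the edgeR fit. Filled points passed an adjusted p of 0.05. On the left PPP1R15A alone lies above 0 and the bar of ATF4 crosses 0, and on the right HSPA5 and SEL1L lie below -3.

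Immediate early genes, which are transcribed within minutes of a stimulus without new protein synthesis, were higher in 14 and lower in 3 of 29 (median 0.76, and 0.19 with library size alone). Their AP-1 subunits rose, with FOS as above, FOSB at 2.99 ± 0.35 (adjusted p = 2.42e-05), and JUN from 94.7, 81.7 and 91.6 CPM to 500, 249 and 320 CPM (1.996 ± 0.29, adjusted p = 0.000107). HBEGF, a ligand of the EGF receptor, rose by 3.32 ± 0.43 (adjusted p = 4.79e-05), and the orphan nuclear receptors NR4A1 and NR4A2 by 3.21 and 2.94. GADD45B, a stress sensor of the p38 and JNK pathways, went from 10.2, 6.62 and 10.4 CPM to 66.8, 58.5 and 89.4 CPM (2.97 ± 0.42, adjusted p = 9.16e-05), and the phosphatases DUSP1 and DUSP2 were at 2.18 and 2.25. All of these were called genes and lay outside the untreated range in each library, as did 58.7% of all genes tested, called or not. The 3 lower members were CCN1 (-1.33, lost without combination replicate 1 with an adjusted p of 0.0555), KLF6 (-0.93) and SRF (-0.87 ± 0.24, adjusted p = 0.00735), the factor that drives many immediate early promoters. EGR1 (0.44, adjusted p = 0.449) and ATF3 (0.18, adjusted p = 0.610) did not pass. EGR1 did pass as higher in the fits of only the libraries compared, without and with the replicate block. FOSB overlaps ERCC1 on the opposite strand. Cisplatin alone against untreated cells gave 19 higher and 0 lower of these 29 genes (median 1.23). In the same promoter windows and on both strands, the cyclic AMP response element TGACGTCA was in 3 of 22 promoters of tested members (13.6%) and 271 of 8333 of all genes tested (3.25%), and the AP-1 site TGACTCA in 0 of 22 and in 185 of 8333 (2.22%).

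Cytosolic and mitochondrial heat shock chaperones were higher in 11 and lower in 2 of 19 genes (median 0.68), and in 6 and 4 with library size alone (median 0.12). Beside HSPA8, the increases covered the HSP70 co-chaperones DNAJB4 (2.10 ± 0.32, adjusted p = 0.000144) and DNAJA1 (1.01), the HSP90 cofactors AHSA1 (1.28 ± 0.19, adjusted p = 9.58e-05) and FKBP4 (1.23), HSP90AA1 (0.78) and the mitochondrial chaperonin HSPE1 (1.91). HSP90AB1, from 5395, 5280 and 5381 CPM to 9086, 7405 and 8044 CPM, did not pass (0.61 ± 0.26, adjusted p = 0.0707). It passed in 7 of the alternatives, and its groups did not overlap, as in 58.7% of all genes tested. The mitochondrial HSP70 HSPA9 (-0.77 ± 0.17, adjusted p = 0.00155) and the transcription factor HSF2 (-1.08 ± 0.33, adjusted p = 0.0151) were lower. HSF2 lost its call without combination replicate 1 (adjusted p = 0.0830) or 3 (0.0511). AHSA1 and HSPE1 overlap genes on the opposite strand. Of the 19 genes, 10 were higher and 2 lower with cisplatin alone against untreated cells (median 0.56).

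Genes that carry copper and platinum moved in both directions. Of 28 listed genes 18 could be tested, 5 were higher and 4 lower (3 and 7 with library size alone), and the median of -0.05 changed sign in 7 of the alternative settings, so that no direction is given for the list. SLC31A1 encodes CTR1, the main copper importer and a route of cisplatin entry (ENSG00000136868, chromosome 9, 113221562 to 113264492, plus strand). It was at 142, 148 and 165 CPM in untreated cells, at 40.5, 64.2 and 53.7 CPM with the combination (-1.53 ± 0.29, adjusted p = 0.000716) and at 91.8, 103 and 141 CPM with cisplatin alone. Every combination library was thus below every cisplatin library, and every cisplatin library below the lowest untreated one. ATOX1, the chaperone that hands copper to the exporters ATP7A and ATP7B (ENSG00000177556, chromosome 5, 151742316 to 151772532, minus strand), was at 66.0, 49.8 and 47.1 CPM in untreated cells, at 324, 274 and 254 CPM with the combination (2.39 ± 0.41, adjusted p = 0.000346) and at 264, 148 and 85.0 CPM with cisplatin alone.

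Other copper chaperones differed among themselves, and COX17 (0.66, adjusted p = 0.245) and SCO1 (0.0052, adjusted p = 0.987), both of the mitochondria, did not pass. COX17 did pass in the fit of only the 6 libraries compared (0.84, adjusted p = 0.00242). SCO2, which delivers copper to cytochrome c oxidase, went from 29.6, 29.1 and 29.5 CPM to 96.7, 88.2 and 93.9 CPM (1.66 ± 0.22, adjusted p = 6.70e-05). SOD1, the copper-zinc superoxide dismutase, went from 340, 353 and 330 CPM to 1039, 793 and 883 CPM (1.41 ± 0.30, adjusted p = 0.00144), and its chaperone CCS was at 0.94 ± 0.25 (adjusted p = 0.00587). CCS lost its call with library size alone (0.37, adjusted p = 0.241), and COX11 (0.75, adjusted p = 0.0118) also lost its call without combination replicate 3 (adjusted p = 0.0725). The lower genes were LRRC8D, a subunit of the volume-regulated anion channel that also takes up cisplatin (-2.49 ± 0.43, adjusted p = 0.000366), the multidrug exporter ABCB1 (-2.27 ± 0.39, adjusted p = 0.000306), SLC31A1 and COX19 (-0.52, adjusted p = 0.0389). COX19 lost its call in 11 of the alternatives tried. ATP7A, at 7.33, 7.77 and 9.93 CPM in untreated cells and 2.13, 2.41 and 5.96 CPM with the combination, did not pass (-1.25 ± 0.56, adjusted p = 0.0800). It did pass as lower in 4 of the alternatives, among them the fit of only the libraries compared. ATP7B, the copper exporter that the study links to cisplatin tolerance, had 33 counts over all 15 libraries and could not be tested at this depth. SLC31A1, ATOX1, SCO2, ABCB1 and COX11 overlap genes on the opposite strand.

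Metallothioneins and zinc transporters, which buffer heavy metals, were higher in 3 and lower in 2 of 11 (1 and 4 with library size alone), with a median of -0.12 that changed sign in 7 settings. MT2A, the main human metallothionein, was at 45.9, 38.3 and 38.7 CPM in untreated cells and at 86.0, 123 and 95.4 CPM with the combination (1.31 ± 0.31, adjusted p = 0.00314). The zinc importer SLC39A14 fell from 74.6, 78.3 and 68.0 CPM to 17.1, 18.4 and 14.2 CPM (-2.15 ± 0.30, adjusted p = 7.72e-05). Both genes were separated from the untreated range in all libraries, as were 58.7% of all genes tested.

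Genes of the G1/S transition and DNA replication were higher in 23 of 34 and lower in 1, with a median of 1.04 (0.47 with library size alone, with 13 higher and 3 lower). TK1, the salvage kinase of thymidine (ENSG00000167900, chromosome 17, 78174075 to 78187233, minus strand), was at 31.9, 29.4 and 30.3 CPM in untreated cells, at 132, 134 and 139 CPM with the combination (2.14 ± 0.20, adjusted p = 3.77e-06) and at 78.4, 122 and 132 CPM with cisplatin alone. CDT1, which loads the replicative helicase, was at 2.02 ± 0.20 (adjusted p = 5.83e-06), the ribonucleotide reductase subunit RRM2 at 1.67 (adjusted p = 1.55e-05) and the clamp PCNA at 1.83 (adjusted p = 0.000538). Among helicase subunits, MCM5 (1.60), MCM7 (1.396), MCM2 (1.28), MCM4 (1.17) and MCM3 (0.80) rose, while MCM6 did not pass (0.51, adjusted p = 0.0517) except in 7 of the alternatives. The single lower member was the transcription factor E2F3 (-0.71 ± 0.25, adjusted p = 0.0324), which lost its call without combination or untreated replicate 1 or 3 (adjusted p = 0.0653 to 0.152). With all libraries kept, E2F3 also lost it with edgeR's RLE (adjusted p = 0.0630), upper quartile scaling (0.0655) and DESeq2 (0.0587). Of the 34 genes, 28 were higher and 0 lower with cisplatin alone against untreated cells (median 1.22).

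Sites of E2F factors were searched in the same promoter windows as TTTCGCGC, TTTGGCGC or TTTCCCGC on both strands, which can overlap each other. They were in 13 of 27 promoters of tested members (48.1%) and in 8 of the 17 whose genes were higher (47.1%), against 340 of 8333 promoters of all genes tested (4.08%) and 649 of 27305 in all (2.38%). The promoter of E2F3, the only lower member, also held a site, and so did that of MCM6, which did not pass. Windows of 3 members that rose are shown with the site in capitals. In all 3 the site shown is TTTCCCGC on the other strand, and a further site of MCM7 is not shown.
CDT1 (chr16:88803734-88803781, plus strand, 35 bases before the start): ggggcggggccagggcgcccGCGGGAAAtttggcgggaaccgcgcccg
MCM7 (chr7:100101557-100101604, minus strand, 187 bases before the start): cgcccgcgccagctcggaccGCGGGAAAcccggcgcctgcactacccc
PCNA (chr20:5126654-5126701, minus strand, 59 bases before the start): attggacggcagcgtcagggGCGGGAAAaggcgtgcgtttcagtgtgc

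Mitotic genes were higher in 6 and lower in 11 of 32, with a median of -0.41 (-0.97 with library size alone, with 1 higher and 19 lower). TOP2A, the topoisomerase that separates sister chromatids, went from 2275, 2093 and 2364 CPM to 978, 806 and 722 CPM (-1.43 ± 0.23, adjusted p = 0.000183). The kinetochore genes CENPE (-1.23) and NDC80 (-1.18), the kinase PLK1 (-1.09) and the spindle protein HMMR (-1.02) were also lower. PTTG1 (1.14), CKS2 (1.11), CDC20 (1.09) and MAD2L1 (1.08) were higher, and MKI67, a common proliferation marker, did not pass (-0.33, adjusted p = 0.202).

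Base excision repair, which removes damaged bases, was higher in 8 and lower in 0 of 20 genes (median 0.36), but with library size alone the median was -0.20, with 4 higher and 5 lower. The glycosylase NTHL1 (ENSG00000065057, chromosome 16, 2039815 to 2047866, minus strand, overlapping TSC2 on the opposite strand) went from 21.7, 22.4 and 20.9 CPM to 109, 120 and 111 CPM (2.39 ± 0.21, adjusted p = 2.33e-06). UNG, which removes uracil, went from 43.4, 46.9 and 49.9 CPM to 199, 167 and 156 CPM (1.89 ± 0.21, adjusted p = 1.55e-05), and the replicative ligase LIG1 was at 1.16 (adjusted p = 0.000132). Nucleotide excision repair, the route that removes platinum adducts, had 3 higher and 2 lower of 24 genes (1 and 7 with library size alone) and a median of 0.04, which changed sign in 3 settings. Its higher genes were the 3 subunits of the single-strand binding protein RPA (RPA1 at 0.69, RPA2 at 1.13 and RPA3 at 1.53), which also serve replication, and its lower genes GTF2H3 (-1.12) and RAD23B (-0.89). The damage sensor XPC (-0.23, adjusted p = 0.412) and the nuclease subunits ERCC1 (0.17, adjusted p = 0.663) and ERCC4 (0.16, adjusted p = 0.610) did not pass. Of 29 genes of the Fanconi anaemia pathway, homologous recombination and translesion synthesis, 6 were higher (20.7%) and 7 lower (24.1%), near the 17.6% and 23.3% over all genes tested. With library size alone 1 was higher and 9 lower, and the median of -0.05 changed sign in 8 settings. FANCB (2.28) and FANCA (1.34) were among the higher genes, and the end-resection factor RBBP8 (-1.36) and the translesion polymerase POLK (-1.28 ± 0.22, adjusted p = 0.000361) among the lower.

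Targets of p53 were higher in 7 (21.9%) and lower in 7 (21.9%) of 32, with a median of -0.16. This is near the 17.6% higher and 23.3% lower over all genes tested. With library size alone 2 were higher and 12 lower (median -0.72). BAX, a pore-forming protein of apoptosis, went from 47.2, 47.2 and 54.0 CPM to 146, 117 and 110 CPM (1.33 ± 0.19, adjusted p = 9.93e-05). BBC3, which encodes PUMA, went from 153, 125 and 137 CPM to 27.7, 73.0 and 20.9 CPM (-1.78 ± 0.41, adjusted p = 0.00263). SESN2, an inhibitor of mTORC1, was at -2.12 ± 0.44 (adjusted p = 0.00124), SUSD6 at -2.96 ± 0.55 (adjusted p = 0.000603) and the p53 ligase MDM2 at -1.56. CDKN1A, the cell cycle inhibitor p21, was low in all groups, at 3.83, 3.74 and 6.11 CPM in untreated cells and 9.96, 14.4 and 5.96 CPM with the combination (1.12 ± 0.41, adjusted p = 0.0369), and its groups overlapped. Its call was lost without combination or untreated replicate 1 or 2 (adjusted p = 0.0841 to 0.198). With all libraries kept, it was lost with library size alone (adjusted p = 0.310), limma-voom (0.0539) or no filter (0.0657). In the BCL2 family, 2 of 12 were higher and 3 lower (2 and 4 with library size alone), and the median of 0.01 changed sign in 5 settings. Its higher genes were BAX and BAD (1.84), and its lower genes BBC3, HRK (-2.36) and the protective BCL2L1 (-1.46).

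Since Amphotericin B binds sterols, genes of sterol and membrane lipid supply were read as separate groups. Cholesterol synthesis enzymes were higher in 8 and lower in 2 of 22, with a median of 0.38 that became -0.19 with library size alone, with 5 higher and 5 lower. MVD, the decarboxylase of the mevalonate pathway (ENSG00000167508, chromosome 16, 88651935 to 88663161, minus strand), went from 34.1, 29.4 and 24.2 CPM to 150, 126 and 104 CPM (2.12 ± 0.25, adjusted p = 2.42e-05). EBP (1.23), ACAT2 (1.14), FDPS (1.09) and MSMO1 (1.05) were also higher, while the epoxidase SQLE (-0.88, adjusted p = 0.00960) was among the lower. MSMO1 lost its call with library size alone (0.48) and SQLE without combination replicate 3, where its adjusted p lay at the threshold. Cisplatin alone against untreated cells gave similar numbers, 8 higher and 1 lower of the 22 (median 0.32).

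Control of sterol synthesis and transport was higher in 5 and lower in 7 of 21 genes (median -0.30), and in 1 and 12 with library size alone. The protease MBTPS2, which activates SREBP and ATF6 in the Golgi, went from 19.8, 22.7 and 19.3 CPM to 8.53, 3.21 and 2.98 CPM (-2.04 ± 0.38, adjusted p = 0.000644). SREBF1 (-1.42), SREBF2 (-0.67) and NPC1 (-1.37) were lower, and INSIG1 (0.91) and NPC2 (0.94) were higher and lost their calls with library size alone, and NPC1 lost its call without combination replicate 1 (adjusted p = 0.0590). Fatty acid genes were higher in 1 and lower in 5 of 14 (median -0.49), and in 0 and 8 with library size alone. ACSL3, a ligase that activates long-chain fatty acids, went from 346, 319 and 316 CPM to 74.0, 76.2 and 73.8 CPM (-2.13 ± 0.21, adjusted p = 5.81e-06), and ACSL4 (-1.40) and the desaturase SCD (-1.09) were lower as well. For cisplatin alone against untreated cells, sterol control had 4 higher and 8 lower genes (median -0.39). Fatty acid genes had 1 higher and 7 lower in that comparison (median -0.42).

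Genes that keep the balance of sodium, potassium, calcium and osmolytes were higher in 1 and lower in 9 of 17, with a median of -0.87 (0 and 14 with library size alone). ATP1B1, the beta subunit of the sodium and potassium pump (ENSG00000143153, chromosome 1, 169105697 to 169132722, plus strand, overlapping NME7 on the opposite strand), went from 587, 610 and 562 CPM to 137, 188 and 129 CPM (-1.96 ± 0.23, adjusted p = 2.41e-05). SLC38A2, a sodium-coupled amino acid carrier, went from 624, 576 and 625 CPM to 109.5, 170 and 119 CPM (-2.20 ± 0.26, adjusted p = 2.50e-05). Both were also low with cisplatin alone, where ATP1B1 was at 168, 173 and 223 CPM. The calcium pumps ATP2B1 (-1.72) and ATP2A2 (-1.18), the kinase WNK1 (-1.14) and the carrier SLC12A2 (-1.06) were lower, and AKR1B1, which makes sorbitol, was higher (0.996 ± 0.21, adjusted p = 0.00143, lost with library size alone). Cisplatin alone against untreated cells gave 1 higher and 11 lower of the 17 genes (median -1.21).

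Components of TGF-beta signalling, matrix and adhesion were lower in 17 and higher in 3 of 25, with a median of -1.50. SEMA3E, a secreted semaphorin, went from 156, 159 and 155 CPM to 31.3, 44.9 and 47.7 CPM (-1.92 ± 0.23, adjusted p = 2.42e-05), and the laminin chain LAMC1 from 145, 164 and 167 CPM to 39.8, 39.3 and 35.0 CPM (-2.06 ± 0.31, adjusted p = 0.000142). The protease MMP16 (-2.12), N-cadherin CDH2 (-2.42), the collagen COL5A2 (-2.09) and SMAD3 (-3.24) were lower. The higher genes were E-cadherin CDH1 (1.92), fibronectin FN1 (1.58) and TGFB1 (1.10), of which CDH1 stayed at or below 10.7 CPM in these libraries. Of the 25 genes, 19 were lower and 2 higher with cisplatin alone against untreated cells (median -1.85).

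Abundant transcripts of protein synthesis and degradation rose as groups. Of 78 cytosolic ribosomal proteins 73 were higher and 0 lower, with a median of 1.32 (0.76 with library size alone) and a range of 0.39 to 2.36. RPL39 went from 157, 167 and 170 CPM to 932, 725 and 884 CPM (2.36 ± 0.37, adjusted p = 0.000156), although ribosomal proteins have many near-identical pseudogenes, so that single members are uncertain. Proteasome subunits were higher in 25 and lower in 1 of 34 (median 0.85, and 0.29 with library size alone, with 13 higher and 4 lower), with PSMB4 at 1.60, PSMB5, a catalytic subunit, at 1.09, and the activator PSME4 at -0.73. RNA of the mitochondrial genome also moved: 7 of 13 messenger RNAs were higher and 2 lower (median 1.20), from MT-CO1 at 3.23 to MT-ATP8 at -1.14 and MT-ND3 at -1.09. The ribosomal RNAs MT-RNR1 and MT-RNR2 were at 4.13 and 3.08. Among RNAs without a normal poly(A) tail, RMRP went from 4.14, 2.88 and 1.53 CPM to 149, 73.0 and 192 CPM (5.61 ± 0.98, adjusted p = 0.000370), SNORD3A was at 4.39 and TERC at 1.398, so that all 3 tested members of that list were higher. TERC lost its call without combination replicate 1 or 2 or any untreated replicate (adjusted p = 0.0529 to 0.108), and with library size alone (0.115). Other large noncoding changes were AL360012.1 (5.04) and AL356488.2 (4.99) upward, and AL365181.2 (-2.30), MAFG-DT (-2.12) and ENSG00000260336 (-1.97) downward. With the genes of the mitochondrial genome left out, a setting added after seeing the data, 1959 genes were higher and 2579 lower. In the main fit, cisplatin alone against untreated cells gave 75 higher and 0 lower of the 78 ribosomal proteins (median 1.18). Proteasome subunits had 15 higher and 2 lower in that comparison (median 0.49).

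**Figure D3:**
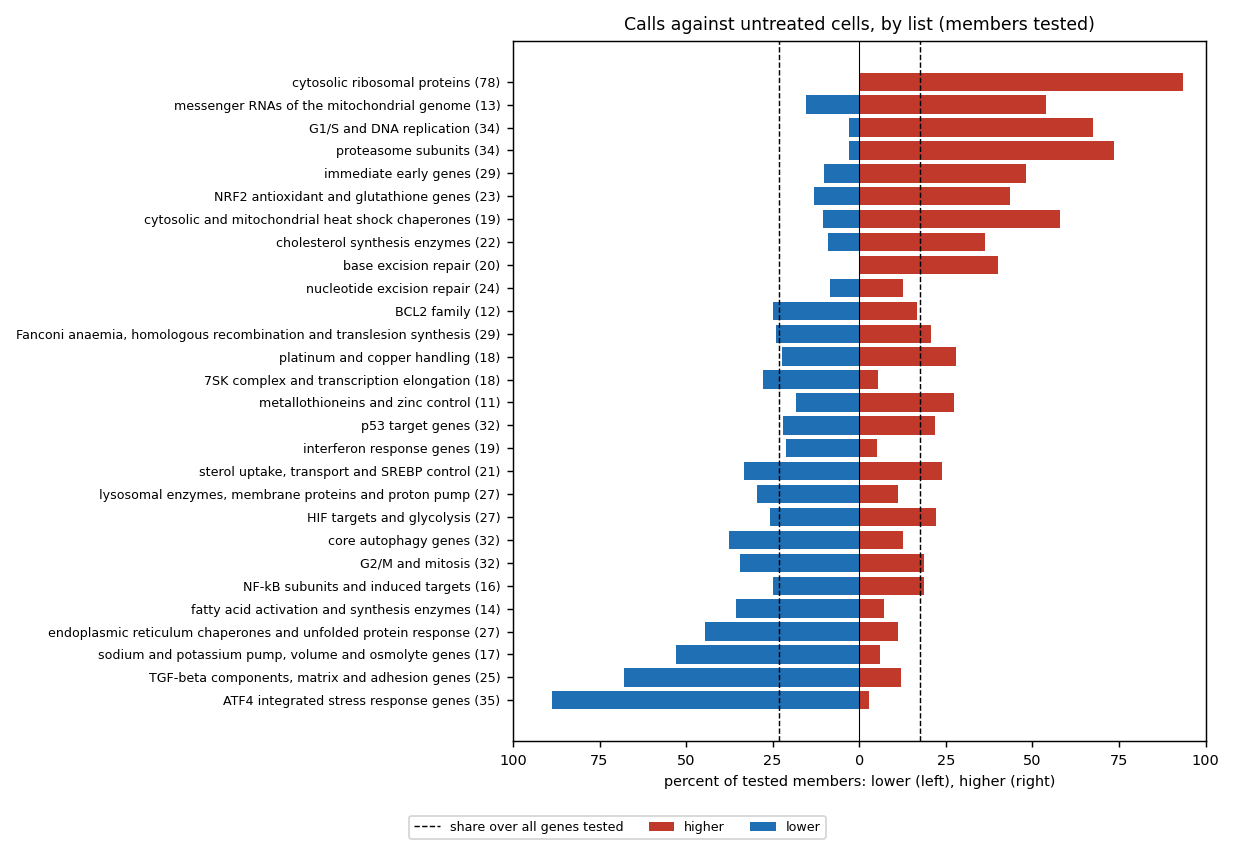
Percent of the tested members of each list of at least 10 genes that were lower (blue, left) or higher (red, right) than in untreated cells at an adjusted p of 0.05, with the number tested in parentheses. Dashed lines mark 23.3% lower and 17.6% higher over all genes tested. Lists are ordered by median, from ribosomal proteins to the ATF4 list, and the medians of cholesterol synthesis, base excision repair, nucleotide excision repair and the BCL2 family change sign with library size alone.

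The change followed the length of the gene. The genes with a known position were put in 5 classes of equal number by genomic span, from 59 to 8667 bp in the shortest class to 86296 to 2241765 bp in the longest. Their median log2 fold changes were 0.63, 0.16, -0.18, -0.49 and -0.78, the share of higher genes fell from 43.3% to 2.28%, and the share of lower genes rose from 7.71% to 43.7%. In each library, the median of the shortest class minus that of the longest, relative to the untreated mean, was 1.43, 1.27 and 1.32 with the combination and 0.021, 0.013 and -0.035 in untreated cells. It was 1.51, 1.99 and 1.497 with cisplatin alone, 1.42, 1.37 and 0.74 with Telmisartan and 0.56, 0.45 and 0.36 with Tranilast. All 12 treated libraries were on the same side, and the 3 combination libraries lay below the range of cisplatin alone. With library size alone the shortest class was at 0.063 and the longest at -1.34.

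**Figure D4:**
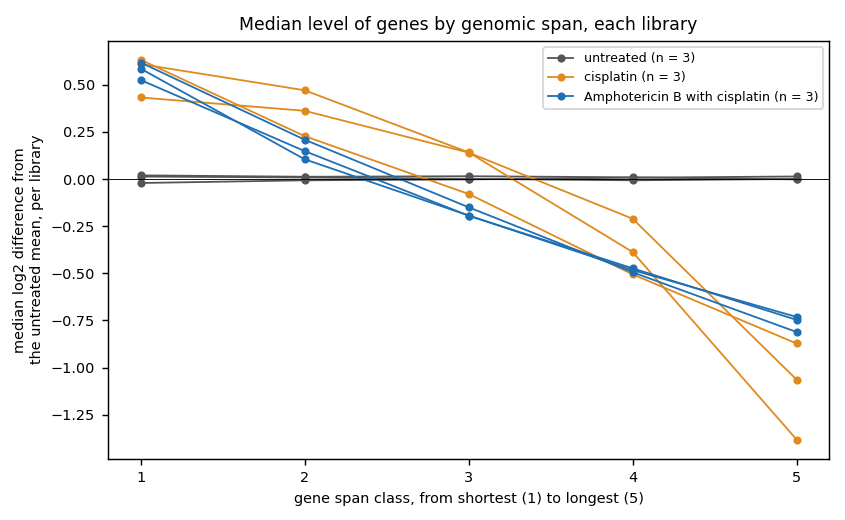
Median log2 difference from the untreated mean in each library, for 5 classes of genes from the shortest (1) to the longest (5) genomic span. Lines are single libraries of untreated cells, cisplatin alone and Amphotericin B with cisplatin (n = 3 each). Untreated libraries stay within 0.021 of 0, and combination libraries run from 0.53 to 0.62 in class 1 to -0.73 to -0.81 in class 5.

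Groups were also set beside all genes of the same length, with no test. In both shortest classes together, 34.4% of all genes were higher and 9.46% lower (median 0.34), in the middle class 12.3% and 20.1% (median -0.18) and in both longest classes 3.78% and 38.8% (median -0.63). Of the ATF4 members in the shortest classes, 16 of 18 were lower (median -1.52), and 7 of 9 in the middle class and 8 of 8 in the longest. Ribosomal proteins are short, with 67 of 78 in both shortest classes (63 higher), and 20 of the 25 adhesion genes fell in both longest classes (15 lower, median -1.51). In the G1/S list, 13 of 17 in the shortest classes, 6 of 9 in the middle class and 4 of 8 in the longest classes were higher. ER genes in the shortest classes had 3 higher and 4 lower of 16, and all 6 in the longest classes were lower (median -2.05). Among platinum and copper genes, all 4 in the shortest classes were higher and 4 of 10 in the longest were lower. Fatty acid genes in the longest classes had 0 higher and 3 lower of 10 (median -0.49). Sterol control genes there had 1 higher and 5 lower of 12 (median -0.56). Neither list thus had a lower median than all genes of that length (-0.63).

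Against cisplatin alone, 1469 genes passed (13.2% of the genes tested), of which 468 were higher with the combination (4.21%) and 1001 lower (9.01%), and the median gene was at -0.035. Both groups share the cisplatin exposure. By the study's methods, cells given cisplatin alone received it directly, with no 24 h incubation before it stated. Upper quartile scaling gave 603 higher and 727 lower. The libraries did not overlap in 24.6% of the genes, with the combination above all cisplatin libraries in 10.9% and below all of them in 13.8%. Without cisplatin replicate 1 the counts were 1885 and 1949, without cisplatin replicate 2 they were 46 and 163, and without cisplatin replicate 3 they were 85 and 365. Leaving out combination replicate 1, 2 or 3 gave 199, 272 or 139 higher and 529, 688 or 298 lower genes. These counts thus varied several-fold with the library left out.

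Genes that stood above cisplatin as well as above untreated cells included stress genes already described. FOS was at 21.3, 14.2 and 7.15 CPM with cisplatin and at 82.5, 50.5 and 93.2 CPM with the combination (2.44 ± 0.58, adjusted p = 0.0135), but lost its call without combination replicate 3 (adjusted p = 0.0589), cisplatin replicate 2 (0.0710) or cisplatin replicate 3 (0.0617). GADD45B was at 30.2, 19.6 and 15.1 CPM with cisplatin (1.74 ± 0.41, adjusted p = 0.0125) and lost its call in the same 3 settings (adjusted p = 0.0594 to 0.0706). AL355075.4, which lies antisense to PARP2, was at 37.0, 17.2 and 12.3 CPM with cisplatin and at 98.8, 76.2 and 85.0 CPM with the combination (1.997 ± 0.38, adjusted p = 0.00562), and reads of both genes cannot be told apart without strand. In all 3 genes no cisplatin library reached the lowest combination library. Without cisplatin replicate 1 the log2 fold changes were 2.89, 2.09 and 2.61. MT-TV, a mitochondrial transfer RNA, was at 1.80.

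Other genes were between the untreated and the cisplatin level. ETV6, a transcriptional repressor, was at 33.8, 34.0 and 39.5 CPM in untreated cells, at 8.40, 2.45 and 1.19 CPM with cisplatin and at 17.8, 9.62 and 17.1 CPM with the combination (1.99 ± 0.47 against cisplatin, adjusted p = 0.0132). ATG10, an enzyme of autophagosome formation that overlaps RPS23 on the opposite strand, was at 69.5, 69.6 and 72.6, at 15.1, 3.43 and 4.37, and at 30.6, 30.5 and 23.9 CPM in the same order (1.95 ± 0.44, adjusted p = 0.0110), and the capping enzyme RNGTT was at 1.78. ETV6 lost its call in 5 of the alternatives, and ATG10 and RNGTT in 3 each, among them the fit of only these libraries and those without cisplatin replicate 2 or 3. Against untreated cells RNGTT (-0.85, adjusted p = 0.0430) lost its call in 12 alternatives. Over all genes, the longest span class was 0.39 above cisplatin.

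In most of the lower genes cisplatin replicates 2 and 3 lay above untreated cells and the combination below them. The call against untreated cells was lost in 11 alternatives in ZDHHC7, in 4 in HIC2 and in 3 in POMGNT2. SRF (ENSG00000112658, chromosome 6, 43171299 to 43181507, plus strand) was at 94.0, 82.3 and 113 CPM in untreated cells, at 137, 293 and 247 CPM with cisplatin and at 49.8, 56.9 and 51.4 CPM with the combination (-2.10 ± 0.24 against cisplatin, adjusted p = 0.000306). HIC2, a zinc finger repressor, was at 23.0, 117 and 75.9 CPM with cisplatin and at 10.7, 13.6 and 8.94 CPM with the combination (-2.71 ± 0.43, adjusted p = 0.00356), and STK35, a kinase, at 30.2, 103 and 102 CPM and at 14.9, 17.6 and 15.7 CPM (-2.30 ± 0.42, adjusted p = 0.00463). In each, cisplatin replicate 1 was the cisplatin library nearest to the combination, yet above all of its libraries. POMGNT2 (-2.19), the palmitoyltransferase ZDHHC7 (-2.07), ZNF473 (-2.06), HECA (-1.88) and AMMECR1L (-1.85) had the same order of cisplatin and combination libraries. Without cisplatin replicate 1 all 8 stayed lower, from -3.08 in HIC2 to -2.08 in AMMECR1L.

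**Figure D5:**
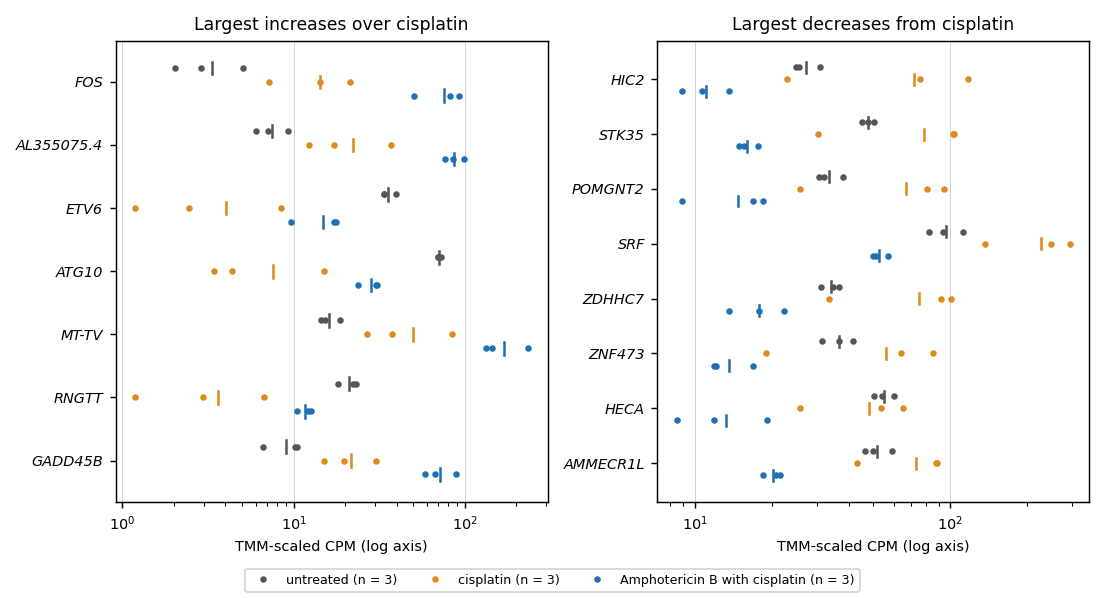
Level of 7 of the 8 genes with the largest increase over cisplatin (left) and the 8 with the largest decrease (right) among genes that also passed against untreated cells, as TMM-scaled CPM on a log axis. Points are libraries of untreated cells, cisplatin alone and the combination (n = 3 each), and bars are group means. ETV6, ATG10 and RNGTT on the left lie below untreated cells and above cisplatin, and SRF on the right lies at 49.8 to 56.9 CPM against 137 to 293 CPM with cisplatin.

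Gene groups are read beside the 4.21% of all genes that were higher and the 9.01% that were lower than with cisplatin. Immediate early genes were higher in 3 (FOS, GADD45B and EGR1) and lower in 7 of 29 (SRF, NR4A2, KLF6, NR4A3, FOSL2, IER5 and TRIB1). The numbers were 5 and 9 without cisplatin replicate 1, 0 and 3 without cisplatin replicate 2 or combination replicate 3, and 0 and 4 without cisplatin replicate 3. EGR1 lost its call in 6 alternatives, TRIB1 in 9, FOSL2 in 6 and NR4A3 in 5. NR4A2 was at 53.2, 118 and 103 CPM with cisplatin and at 21.3, 33.7 and 26.8 CPM with the combination (-1.75, adjusted p = 0.00453), thus above untreated cells and below cisplatin. SLC31A1 was the only platinum and copper gene of 18 that passed (-1.09 ± 0.29, adjusted p = 0.0235), and it lost the call without combination replicate 1 or 3, without cisplatin replicate 2 or 3 and in the fit of only these libraries (adjusted p = 0.0629 to 0.102). Without cisplatin replicate 1 the platinum and copper list had 3 higher and 2 lower. Base excision repair had 4 higher (NTHL1, OGG1, PARP1 and LIG1, from 0.56 to 0.77) and 4 lower genes of 20, and the latter included FEN1, at 103, 310 and 250 CPM with cisplatin and 61.2, 57.7 and 82.0 CPM with the combination (-1.72, adjusted p = 0.00404). With library size alone none of the 4 was called higher, and the list had 5 higher and 6 lower without cisplatin replicate 1 and 0 and 2 without cisplatin replicate 2.

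In the G1/S list 1 gene was higher (MCM7, 0.75, adjusted p = 0.00808) and 6 were lower (E2F2, E2F3, CCNE1, CCNE2, CCND1 and CDK2), of which E2F2 was at 78.4, 299 and 244 CPM with cisplatin and 69.7, 55.3 and 50.7 CPM with the combination (-1.82, adjusted p = 0.00723). Without cisplatin replicate 1 the list had 4 higher and 12 lower, and without cisplatin replicate 2 it had 1 and 1. Of p53 targets, 0 were higher and 5 lower of 32: SUSD6 (-2.17), TNFRSF10B (-1.67), AEN (-1.10), PMAIP1 (-1.09) and TRIAP1 (-0.88), with 1 and 9 without cisplatin replicate 1 and 0 and 1 without cisplatin replicate 2. In the BCL2 family PMAIP1, which encodes NOXA, and the pore-former BAK1 (-1.32) were lower, with 0 higher and 5 lower without cisplatin replicate 1.

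The ATF4 list, low in both conditions, had 2 higher (DDIT3 at 0.96 and PPP1R15A at 0.62) and 1 lower member (CTH, an enzyme of cysteine synthesis) of 35. It had 2 and 6 without cisplatin replicate 1 and 0 in either direction without cisplatin replicate 2 or combination replicate 1 or 3, and DDIT3 lost its call in 6 alternatives, PPP1R15A in 7 and CTH in 6. The ER list had 2 higher (XBP1 and CALR) and 1 lower (DERL1) of 27, with 8 and 2 without cisplatin replicate 1 and 0 in either direction without cisplatin replicate 2. CALR lost its call in 9 alternatives, DERL1 in 3 and XBP1 in 2. XBP1, a factor of the unfolded protein response, was at 126, 117 and 121 CPM in untreated cells, at 37.5, 19.1 and 33.0 CPM with cisplatin and at 49.8, 65.0 and 72.3 CPM with the combination (1.06 against cisplatin, adjusted p = 0.00848). HSPA5 did not pass against cisplatin (-0.24, adjusted p = 0.530, and 0.17 without cisplatin replicate 1). Heat shock genes had 1 higher (HSPA8) and 1 lower (HSF2), with 4 and 2 without cisplatin replicate 1 and 0 in either direction without cisplatin replicate 2 or 3, and ribosomal proteins had 0 of 78 in either direction, with 21 higher without cisplatin replicate 1. Cholesterol synthesis had 1 of each (FDFT1 at 0.61 and MSMO1 at -0.55), with 4 of each without cisplatin replicate 1 and 0 without cisplatin replicate 2 or 3. Sterol control had 0, with 4 higher and 3 lower without cisplatin replicate 1. The ion and osmolyte list had 3 higher of 17, among them ATP2B1 at 0.79 and NFAT5 at 1.09, all lost with library size alone and without cisplatin replicate 2 or 3, and 6 higher and 2 lower without cisplatin replicate 1. Proteasome subunits were higher in 4 of 34 (PSMD1, PSMD6, PSMD14 and PSMA4, from 0.68 to 0.99) and lower in 0, with 12 higher without cisplatin replicate 1 and 0 without cisplatin replicate 2 or 3 or combination replicate 1. PSMA4 lost its call in 7 alternatives and PSMD6 in 5. The mitochondrial messengers MT-ATP8 (-1.69), MT-ND3 (-1.19) and MT-ATP6 (-0.87) were lower, a number that fell to 1 without cisplatin replicate 2.

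Against the other drugs, which were given at the same dose and time before cisplatin, the combination differed from Tranilast with cisplatin in 4003 genes (36.0%), 1817 upward (16.4%) and 2186 downward (19.7%). From Telmisartan with cisplatin, 0 genes passed the same edgeR test in either direction (0% of the genes tested, smallest adjusted p = 0.0659), with 2283 genes at an unadjusted p under 0.05. DESeq2 called 64 higher and 120 lower in that comparison, limma-voom 2 and 0, and edgeR's likelihood ratio test 128 and 332, so that the absence of calls does not show that both drugs act alike. FOS had a log2 fold change of 4.41 against Tranilast (adjusted p = 0.000808) and of 1.42 against Telmisartan (adjusted p = 0.168). SLC31A1 was at -1.49 (adjusted p = 0.00164) and -0.58 (adjusted p = 0.266), respectively. Telmisartan replicate 3 stood apart from its other replicates by 42.3 and 49.6 in mean chi-square per gene.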

How the data were processed

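For each library the authors deposited raw counts of reads per Ensembl gene, which were not normalized. The submitters' processing notes name STAR 2.3.0, HTSeq and hg19. The annotation and the strand setting are not given in the sources used here. GENCODE 29 on GRCh38 held 45776 of the 47634 identifiers and gave names, biotypes, overlaps and spans. RefSeq promoters of GRCh38.p14 (27305) matched 8333 tested genes.

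Genes kept by filterByExpr over all 15 libraries were tested with edgeR 4.0.16 in R 4.3.3: TMM factors, the quasi-likelihood test with 1 coefficient for each condition, Benjamini-Hochberg adjustment and a threshold of 0.05. An SE is |log2 fold change| / sqrt(F). Alternatives used limma 3.58.1 and DESeq2 1.42.0, and summaries Python 3.11.15, numpy 2.4.6, pandas 2.3.3 and matplotlib 3.10.9. The procedure was tested on simulated counts in which a small share of genes was changed, equally often up and down. Such a simulation does not test the choice of scaling. All count columns were used.

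The comparison and the 34 gene lists, 4 of them cell type markers, were chosen with earlier results of these data known. Named genes follow rules: the 12 protein-coding genes that changed most in each direction among those called, whose log2 CPM averages 4 or more and whose groups do not overlap; 3 of other biotypes in each direction; the 4 smallest adjusted p of each list and all platinum and copper genes; and the 8 that changed most in each direction against cisplatin among genes called in both comparisons. Some genes that these rules pick are not reported here. Other genes were named after their values were seen, to show the members of a list by role. Replicate numbers come from the labels, and no source says that equal numbers were handled together. With 3 libraries against 3, an exact permutation test of a single gene cannot go below 0.10, so that calls rest on the fit across genes.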

Additional observations from a re-analysis of the deposited data

How the results depend on the processing

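Of 220 genes named here and called against untreated cells, 173 kept the call in every alternative, 21 lost it only with library size alone and 15 in 3 or more alternatives. Of 71 named genes called against cisplatin, 13 kept the call in every alternative and 48 lost it in 3 or more. No call changed direction, but log2 fold changes of genes that were not called did. With library size alone ATF3 was at -0.38, EGR1 at -0.13, ERCC1 at -0.38, ERCC4 at -0.40, MCM6 at -0.062 and SCO1 at -0.57. With the size factors of edgeR's RLE or DESeq2, upper quartile scaling and the fit of only the libraries compared, without and with the block, CALR was at 0.034, 0.034, 0.052, 0.096 and 0.089 and P4HB at 0.085, 0.085, 0.10, 0.15 and 0.14. ATF4 was at 0.029 and 0.018 in these last fits. SCO1 was at -0.020 with limma-voom, -0.047 and -0.10 with the filter of 1 CPM or none, and -3.26e-05 after thinning. With a library left out, ATF4 ranged from -0.26 to 0.020, ERCC1 from -0.014 to 0.28, P4HB from -0.076 to 0.018, SCO1 from -0.17 to 0.19 and, against cisplatin, HSPA5 from -0.43 to 0.17. Against untreated cells, higher and lower genes numbered 887 and 4804 with library size alone and 1277 and 1541 at an adjusted p of 0.01, and leaving out a library gave 1501 to 1848 higher and 1928 to 2336 lower. Against cisplatin, higher genes numbered 242 with library size alone, 755 with DESeq2, 779 with the likelihood ratio test, 23 in a fit of only these libraries and 52 at 0.01, lower genes 66 in that fit and 241 at 0.01, and leave-outs gave 46 to 1885 higher and 163 to 1949 lower. The cause of these shifts was not tested, beyond the fewer samples or the stricter limit that some settings hold. Deviations of same-numbered libraries from their group means had correlations of -0.049, -0.036 and -0.0053. With means of only 3 libraries, these values cannot decide whether equal numbers were handled together. The replicate block gave 1953 higher and 2616 lower against untreated cells and 523 and 965 against cisplatin. The 5 span classes were at 0.063, -0.41, -0.74, -1.05 and -1.34 with library size alone, and the first 4 at 0.86, 0.26, -0.13 and -0.47 for genes whose log2 CPM averages 5 or more. With a library left out they ranged from 0.57 to 0.64, 0.11 to 0.21, -0.19 to -0.15, -0.52 to -0.47 and -0.82 to -0.76. After seeing the data, 2 further settings were added: without genes of the mitochondrial genome, 1959 and 2579 genes were called against untreated cells and 468 and 996 against cisplatin, and the 6 libraries of the main comparison with the replicate block gave 2540 and 2358. The depth of the combination libraries limits genes of low level, and genes such as ATP7B could not be tested.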

Other observations

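Antioxidant genes under the factor NRF2 were higher against untreated cells in 10 and lower in 3 of 23, with a median of 0.74 (0.18 with library size alone, with 7 higher and 6 lower). FTL, the ferritin light chain, went from 183, 179 and 185 CPM to 792, 715 and 766 CPM (2.06 ± 0.21, adjusted p = 1.12e-05), and cisplatin alone gave 935, 719 and 625 CPM. GSTP1, which conjugates glutathione (1.998), the peroxidases GPX4 (1.71) and PRDX1 (1.52) and thioredoxin TXN (1.45) were higher, while GCLC, the rate-limiting subunit of glutathione synthesis (-1.24), ME1 (-1.40) and NFE2L2, which encodes NRF2 (-0.57), were lower. GCLC lost its call without combination replicate 3 (adjusted p = 0.0615), and NFE2L2 without that library (0.0736) or untreated replicate 1 (0.0530). NFE2L2 also lost it in the fit of only the libraries compared with the replicate block (adjusted p = 0.0525). Against cisplatin 4 were higher and 2 lower, with 9 and 5 without cisplatin replicate 1 and 0 and 1 without cisplatin replicate 2. SRXN1, a sulfiredoxin, was at 114, 109 and 139 CPM in untreated cells, at 283, 426 and 382 CPM with cisplatin and at 113, 132 and 93.2 CPM with the combination (-1.69 against cisplatin, adjusted p = 0.000306), so that the combination overlapped untreated cells and lay below cisplatin.

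Interferon response genes were higher in 1 (5.26%) and lower in 4 (21.1%) of 19 (median -0.27), and in 1 and 6 with library size alone. ISG15, a ubiquitin-like modifier, was at 42.7, 39.1 and 29.3 CPM in untreated cells, at 130, 99.1 and 96.1 CPM with cisplatin and at 219, 221 and 212 CPM with the combination (2.56 ± 0.20 against untreated, adjusted p = 9.48e-07, and 1.01 against cisplatin, adjusted p = 0.00493), while IFIT1 was at -2.75. NF-κB subunits and targets were higher in 3 and lower in 4 of 16 (median -0.42), and in 1 and 8 with library size alone. Glycolysis and hypoxia genes were higher in 6 (22.2%) and lower in 7 (25.9%) of 27 (median -0.40), and in 4 and 16 with library size alone (median -0.96). The glycolytic enzymes GAPDH (1.72), TPI1 (1.73) and ALDOA (1.20) rose while HK2 (-1.81), HIF1A (-0.67) and P4HA1 (-1.70) fell, HIF1A with a call lost without combination replicate 3 (adjusted p = 0.0518). Core autophagy genes were higher in 4 and lower in 12 of 32 (median -0.40), and in 1 and 16 with library size alone, with GABARAP at 1.31 and ULK2 and ATG5 at -1.84 and -1.69. Lysosomal genes were higher in 3 (11.1%) and lower in 8 (29.6%) of 27 (median -0.39), and in 1 and 15 with library size alone, with MCOLN1 at 2.69 and LAMP2 at -1.67. Among 18 genes of transcription elongation 1 was higher and 5 were lower (1 and 8 with library size alone), and the median of -0.09 changed sign in 5 settings. HEXIM1, an inhibitor of the elongation kinase P-TEFb, went from 55.5, 47.8 and 50.4 CPM to 224, 171 and 200 CPM (1.95 ± 0.23, adjusted p = 2.41e-05).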
